A study of Mus musculus with 4 samples.

Results

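EN10 is a subtype of excitatory neuron in the authors' annotation of nuclei from developing and mature mouse superior colliculus. Its nuclei were taken as those whose deposited subtype was EN10: 180 of the 4093 excitatory nuclei and of the 9724 nuclei in all. The other 12 excitatory subtypes (3913 nuclei) served as the comparison. In every library EN10 had more Meis1, Cdh20 and Cntnap4 than each other excitatory subtype with at least 20 nuclei, and less Zfhx3, Tfap2d and Zfhx4 than the other subtypes summed. They were not of one kind: 27 of the 60 EN10 nuclei at P4 were high in Nwd2, and most of these carried a further set of genes. The EN10 nuclei that were not high in Nwd2 fell into nuclei high or low in Alk in every library.

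Superior colliculus was dissected from C57BL/6J mice, an inbred strain with no allele or treatment named, at embryonic day 19 (E19) and at postnatal days 4, 8 and 21 (P4, P8 and P21). Each stage was 1 library of nuclei from several pooled animals. The labels state neither how many animals nor their sexes. Each stage difference below is thus a difference between 2 libraries without replicates, and no test or p-value is given. EN10 had 49, 60, 39 and 32 nuclei in the libraries in stage order.

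The superior colliculus is the midbrain region that receives retinal axons in its upper layers and drives orienting movements from its deeper layers. Its excitatory neurons release glutamate and load it into vesicles with the transporter VGLUT2, the product of Slc17a6. Transcription factors, cadherins and other adhesion proteins are known to mark different layers and projection classes of such neurons, and NMDA receptors in maturing neurons are known to shift from the subunit encoded by Grin2b towards that encoded by Grin2a.

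Libraries held 2249 to 2585 nuclei and 19277512 to 31325079 unique molecular identifiers (UMIs, counts of captured RNA molecules). EN10 nuclei were shallower than the other excitatory nuclei: their median was 6397, 8068.5, 11870 and 15012 UMIs at E19, P4, P8 and P21, against 8147, 11898.5, 14333.5 and 19724.5. No nucleus held fewer than 2355 UMIs. Levels below are UMIs per 1000000 (CPM) of the UMIs summed over a group in 1 library, so they do not depend on the number of nuclei, and log2 ratios have 5 CPM added to both values. A total of 18 barcodes occurred in more than 1 library, and 1 of them was an EN10 nucleus.

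The excitatory label held. Slc17a6 stood at 313, 231, 198 and 161 CPM in EN10 at E19, P4, P8 and P21, close to the 285, 241, 181 and 177 CPM of the other excitatory neurons and well above the 46.3, 38.8, 19.8 and 8.32 CPM of inhibitory neurons. Gad2, which encodes an enzyme that makes GABA, was at 25.3, 19.9, 16.7 and 26.0 CPM in EN10 against 557, 490.3, 444 and 366 CPM in inhibitory neurons. Nuclei with UMIs of both Slc17a6 and at least 1 of Gad1, Gad2 and Slc32a1 made up 32.7%, 26.7%, 25.6% and 43.8% of EN10 in stage order, against 25.9%, 29.8%, 35.1% and 36.2% of the other excitatory nuclei. Slc17a7, the gene for the transporter VGLUT1, was at 0, 47.8, 12.5 and 18.5 CPM in EN10.

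The P4 library stood apart within EN10. Nwd2, a gene for a protein with NACHT and WD repeat domains, was at 79.0, 2135, 27.1 and 24.1 CPM in EN10 in stage order and at 70.1, 129, 66.9 and 47.8 CPM in the other excitatory neurons. The P4 value came from 27 nuclei with 6 to 127 Nwd2 UMIs each, which held 99.3% of the Nwd2 UMIs of P4 EN10. The other 33 held at most 2. With 5 UMIs as the cut, 2 of 49 EN10 nuclei at E19, 1 of 39 at P8 and 0 of 32 at P21 were also Nwd2-high, with at most 12 UMIs. A single EN10 nucleus at each of E19, P8 and P21 lay just under the cut, with 3 or 4 UMIs, and none did at P4.

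The 27 Nwd2-high nuclei differed from the other 33 P4 EN10 nuclei in many further genes. Of 2462 genes at 100 CPM or more in either sum, 272 (11.0%) were higher and 315 (12.8%) lower by a log2 ratio of at least 1. Nwd2 itself chose the nuclei and stood at 5674 against 25.5 CPM. Scube1, which encodes a secreted and membrane-bound glycoprotein, was at 939 against 3.18 CPM. Ano1, a calcium-activated chloride channel, was at 496 CPM against 0, at least 52.0-fold higher when 0 is replaced by 3 UMIs. Robo3, an axon guidance receptor of commissural neurons, was at 336 against 3.18 CPM, and Cadps2, a regulator of dense-core vesicle release, at 1703 against 47.7 CPM. Kcnma1, the large-conductance calcium-activated potassium channel, reached 14834 against 1022 CPM.

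Genes of acetylcholine handling and sensing were among those higher in the Nwd2-high nuclei. Slc5a7, the choline transporter, was at 149 CPM (28 UMIs in 13 of 27 nuclei) and Chat, choline acetyltransferase, at 112 CPM (21 UMIs in 11 nuclei), and neither had a UMI in the other 33 nuclei. Slc18a3, the vesicular transporter of acetylcholine, and the transcription factor gene Isl1 had no UMI in either set. The nicotinic receptor subunit genes Chrna3 and Chrnb4 were at 251 and 69.4 CPM against 3.18 and 0. Both glutamate transporter genes were read: Slc17a7 at 117 against 6.36 CPM and Slc17a6 at 187 against 258 CPM.

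Among transcription factors, Sox6 (785 against 19.1 CPM), Zic1 (432 against 25.5), Nr4a2 (214 against 3.18), Etv1 (262 against 6.36), Pou4f1 (96.1 against 6.36) and Tcf7l2 (822 against 162) were higher in the Nwd2-high nuclei. The genes that led EN10 were mostly low there: Meis1 was at 16.0 against 372 CPM, Ebf2 at 21.4 against 875, Meis2 at 21.4 against 678, Sorcs1 at 74.7 against 2734 and Alk at 32.0 against 1384. Ltbp1 and Kit had no UMI in the 27 nuclei. Dach1, Zfp536 and Klhl1 differed by less than a log2 ratio of 1 between both sets.

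Most of the 27 nuclei carried several of these genes together. Of 9 genes chosen after their values were seen (Scube1, Ano1, Gm29478, D130009I18Rik, Robo3, Cadps2, Syt9, Chrna3 and Slc5a7), the 27 nuclei had a UMI of 8 at the median, and the other 33 of 0 at the median and at most 3. Nuclei with 5 or more Nwd2 UMIs and at least 5 of the 9 genes numbered 23 among the EN10 nuclei of P4, 3 among the other excitatory nuclei of P4, all EN1, and 1 among those of P21. The Nwd2-high EN10 nuclei of E19 and P8 had fewer than 5 of the 9. High Nwd2 alone was not particular to EN10: at P4, 110 of 1146 other excitatory nuclei had 5 or more UMIs, 66 of them in EN7. All 27 nuclei lay in the same cluster of the authors as most of EN10. With P4 profiles thinned to 150000 UMIs, their summed profile correlated at 0.711 (Pearson, log2 values) with the other 33 EN10 nuclei. The correlation was 0.731 with EN1, 0.728 with EN11, 0.726 with EN2 and 0.718 with EN3. It was below 0.711 with each remaining excitatory subtype. The 27 nuclei were shallower than the other P4 EN10 nuclei, with a median of 6452 against 9058 UMIs, and had a median mitochondrial share of 1.15% against 0.885%. Whether the dissection, a batch or another population gave rise to them was not tested. Shares, counts and lists below are given with and without the Nwd2-high nuclei, and levels with all EN10 nuclei unless stated.

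**Figure D1:**
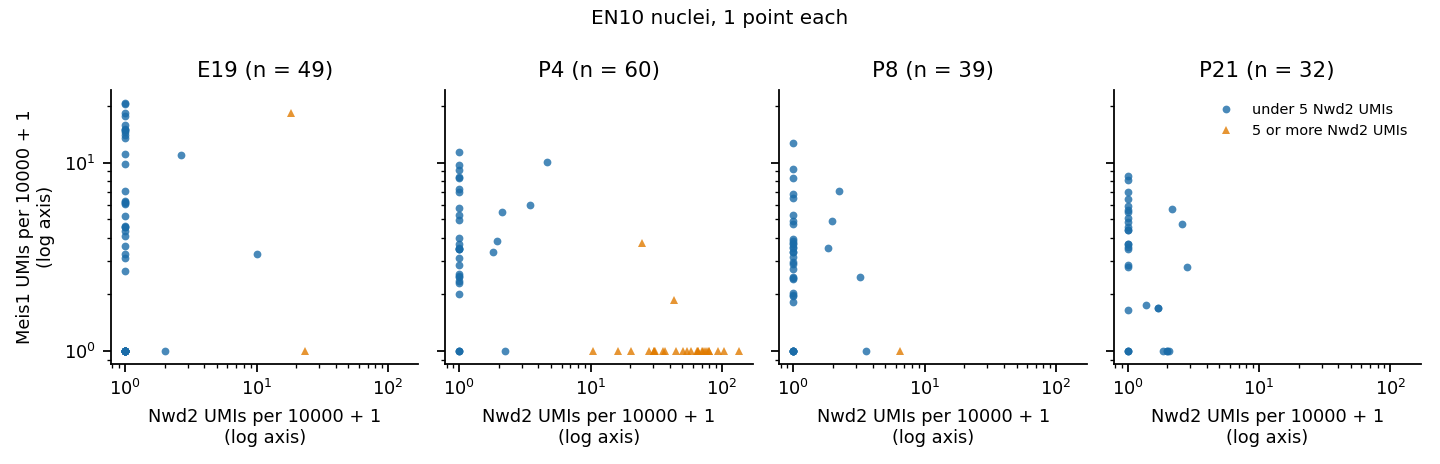
Nwd2 against Meis1 UMIs per 10000 UMIs of each EN10 nucleus, 1 added and both axes on a log scale, in the 4 libraries; triangles are nuclei with 5 or more Nwd2 UMIs. The 27 triangles at P4 lie at high Nwd2, and 25 of them have no Meis1 UMI.

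Among excitatory nuclei, the E19 library held 49 EN10 nuclei of 1338 (3.66%, exact 95% binomial interval 2.72 to 4.81%). In the P4 library 60 of 1206 were EN10 (4.98%, 3.82 to 6.36%). The P8 share was 4.50% (39 of 867, 3.22 to 6.10%), and the P21 share was 4.69% (32 of 682, 3.23 to 6.56%). These intervals, like all others given, cover counting error only, and they overlapped. Without the Nwd2-high nuclei the P4 share was 2.80% (33 of 1179, 1.93 to 3.91%), below the E19 share of 3.52% rather than above it. Of all nuclei, EN10 made up 1.90%, 2.51%, 1.56% and 1.42%.

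**Figure D2:**
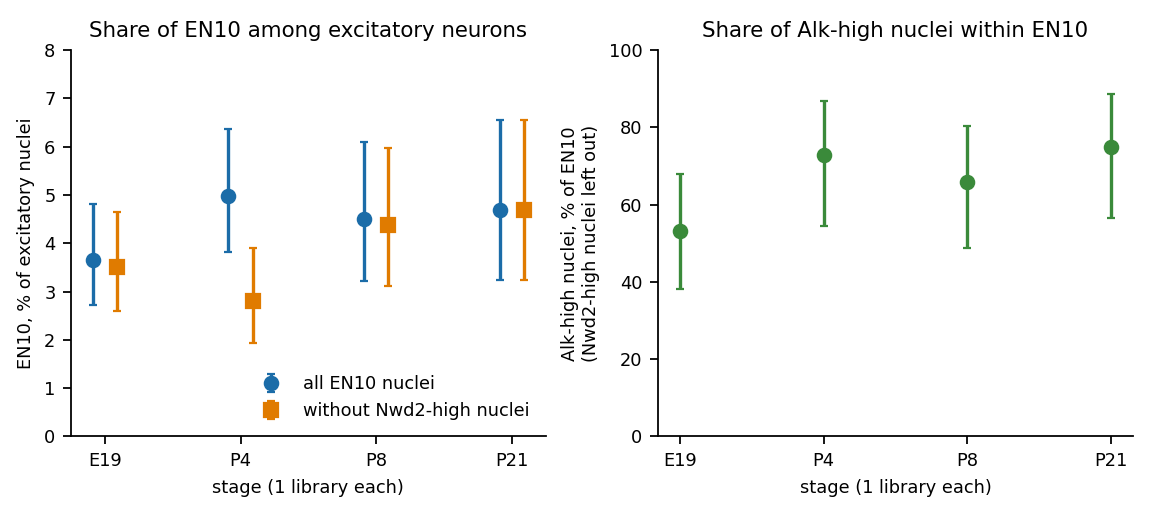
Left, EN10 as a percentage of excitatory nuclei at each stage, with all EN10 nuclei (circles) and without the Nwd2-high ones (squares); right, Alk-high nuclei as a percentage of the remaining EN10 nuclei. Bars are exact 95% binomial intervals of 1 library each; at P4 the share is 4.98% with and 2.80% without the Nwd2-high nuclei, and Alk-high nuclei range from 53.2% to 75.0%.

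Against the other excitatory neurons, 3239 genes reached 50 CPM in the higher group in every library. Of these, 16 (0.494%) were higher in EN10 by a log2 ratio of at least 1 in all 4 libraries and 17 (0.525%) were lower. Because the authors' subtypes were made from the same expression values, these genes describe EN10 and are no test of it. Without the Nwd2-high nuclei 18 of 3223 genes (0.558%) were higher and 22 (0.683%) lower, 15 of each shared with the first sets. With the 12 other subtypes weighted alike in place of by their UMIs, 36.7% of the genes past the ratio were higher, against 48.5%. In the GENCODE vM21 annotation of GRCm38, 12 of the 25 genes with the largest ratios overlap another gene on the same strand. On the opposite strand 18 do. Whether these overlaps affected the counts was not tested.

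The gene with the largest ratio was Meis1, a homeobox factor of the TALE class (GRCm38 chromosome 11, 18879817 to 19018985, minus strand). It was at 673, 239, 303 and 284 CPM in EN10 at E19, P4, P8 and P21 and at 91.6, 31.8, 33.5 and 38.5 CPM in the other excitatory neurons. Its log2 ratio was 2.73 to 3.00 and EN10 ranked first of the excitatory subtypes with at least 20 nuclei in every library; the next subtype reached 221, 111, 113 and 73.0 CPM. Its P4 level was 372 CPM without the Nwd2-high nuclei. Ebf2, a factor of the COE family, was at 1065, 556, 708 and 334 CPM against 313, 173, 253 and 109, and Zfp536, a zinc-finger repressor, at 329, 351, 317 and 248 CPM against 117, 65.9, 101 and 99.7. Subtype EN6 had more Ebf2 than EN10 in every library. The P4 levels of Ebf2 and Zfp536 were 875 and 283 CPM without the Nwd2-high nuclei. Dach1, a transcriptional cofactor, was at 778, 722, 443 and 580.4 CPM against 189, 147, 211 and 232. Neither Dach1 nor Zfp536 was particular to EN10. EN13 had 835, 589, 789 and 680 CPM of Dach1 and 310, 416, 260 and 252 CPM of Zfp536. At E19 and P4, EN11 had 777 and 703 CPM of Dach1 and 448 and 179 CPM of Zfp536. The related Ebf3 was higher in each library but by less than a log2 ratio of 1 in at least 1 of them (log2 0.40 to 1.42), and Pax7, a factor of the early tectum, was at 12.6, 0, 4.18 and 1.85 CPM.

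The next genes include surface proteins. Cdh20, a type II cadherin, was at 294, 399, 451 and 289 CPM in EN10 against 65.6, 67.3, 70.6 and 88.9 CPM, and Cntnap4, a relative of the neurexins, at 1378, 1069, 1332 and 916 against 271, 296, 343 and 305 CPM. EN10 ranked first for both in all 4 libraries. Their P4 levels were 566 and 1419 CPM without the Nwd2-high nuclei. Sorcs1, a sorting receptor of the VPS10 family, was at 1786, 1741, 2299 and 2374 against 706, 615, 1017 and 851 CPM, yet 2 subtypes had more in each library. Its P4 level without the Nwd2-high nuclei was 2734 CPM. Gfra1, a receptor for GDNF, had log2 ratios of 1.03 to 2.76, and EN6 was higher in every library. EN13 had more Gfra1 than EN10 at E19, P8 and P21 (829, 765 and 393 against 724, 591 and 369 CPM). At P4 EN13 had 767 CPM and EN10 772. Kit, the receptor of stem cell factor, had a log2 ratio of 0.95 to 2.89 with all nuclei and of 1.59 to 2.89 without the Nwd2-high ones.

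Among secreted and intracellular proteins, Ltbp1, which binds latent TGF-beta in the matrix, was at 221, 97.7, 138 and 74.2 CPM against 21.8, 27.0, 36.4 and 20 CPM. Angpt1, a ligand of the receptor Tie2, was at 129.6, 81.7, 159 and 132 against 28.7, 38.0, 39.9 and 18.8 CPM. At P4, without the Nwd2-high nuclei, Ltbp1 was at 156 and Angpt1 at 124 CPM. EN13 also had 124 CPM of Angpt1 at P4, and less than EN10 in the other libraries. Golim4, a Golgi membrane protein, had log2 ratios of 1.63 to 2.17, Epb41l4a, a protein of the band 4.1 family, 1.25 to 1.92, and Klhl1, a Kelch-like protein that binds actin, 1.22 to 2.06. Kcnmb2, a subunit of the large-conductance potassium channel, was higher by 1.01 to 2.09. The long noncoding RNA AC124490.1 had log2 ratios of 1.45 to 2.35. EN13 had more of it than EN10 at E19 (127 against 94.8 CPM) and less in the other libraries. Cpne4, a copine, had 1.24 to 1.77 with all nuclei, but without the Nwd2-high ones its P4 level was 286 CPM in place of 692 and its log2 ratio there 0.51. Of the 16 genes, 7 were highest in EN10 among the subtypes in all 4 libraries.

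**Figure D3:**
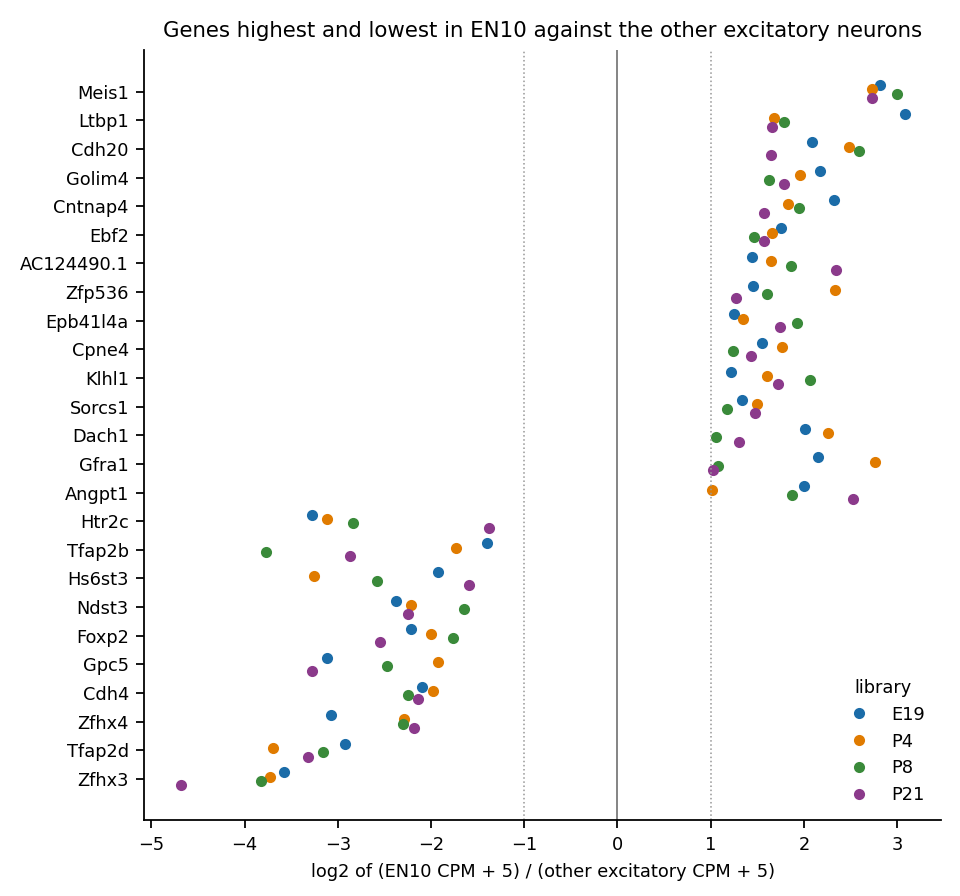
Log2 ratio of EN10 over the other excitatory neurons (5 CPM added) for the 15 highest and 10 lowest genes by the value nearest 0, 1 point per library. Meis1 lies between 2.73 and 3.00 and Zfhx3 between −3.58 and −4.69; dotted lines mark ratios of 1 and −1.

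The gene with the largest ratio below the other excitatory neurons was Zfhx3, a large zinc-finger homeobox factor. It was at 120.1, 63.8, 27.1 and 16.7 CPM in EN10 against 1489.8, 906, 451 and 553 CPM in the other excitatory neurons (log2 −3.58 to −4.69). Its relative Zfhx4 was at 31.6, 27.9, 14.6 and 24.1 against 302, 155, 91.5 and 127 CPM. The AP-2 factors Tfap2d and Tfap2b had log2 ratios of −2.92 to −3.69 and −1.40 to −3.77, and Foxp2, a forkhead factor, −1.76 to −2.54. EN10 was not the lowest subtype in all 4 libraries for any of the 17 lower genes. Low Zfhx3 and Zfhx4 were shared by EN13, which had 48.6 CPM of Zfhx3 at P4 and 13.9 CPM of Zfhx4 at P21. EN11 had 199 and 83.8 CPM of Zfhx3 at E19 and P4. For Foxp2 EN10 was near the middle, ranking from 7 to 8 of 11 to 13 subtypes.

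Of the other lower genes, 3 encode proteins of heparan sulfate, picked out here after their values were seen. Gpc5, a glypican that carries heparan sulfate chains, was at 72.7, 247, 186 and 111 CPM against 667, 954, 1056 and 1125 CPM. Hs6st3, a 6-O-sulfotransferase of those chains, was at 269, 124, 175 and 269 against 1036, 1226, 1073 and 818 CPM, and Ndst3, an N-deacetylase and N-sulfotransferase, at 15.8, 15.9, 18.8 and 20.4 against 103, 92.5, 69.7 and 116 CPM. Cdh4, or R-cadherin, was at 149, 144, 163 and 98.3 against 654, 579.8, 794 and 450.3 CPM. Htr2c, a serotonin receptor, was at 3.16, 14.0, 14.6 and 139 CPM against 74.2, 159.8, 135 and 368, so the gap was smallest at P21 (log2 −1.37). Without the Nwd2-high nuclei, Nxph1, a ligand of neurexins, and Sv2b, a synaptic vesicle protein, were also low, at 75.1, 54.1, 66.0 and 64.9 and 6.53, 19.1, 14.9 and 26.0 CPM against 308, 373, 251 and 317 and 64.4, 86.8, 78.6 and 97.2.

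Read by gene list, against a background of 0.494% higher and 0.525% lower, transcription factors had 2 higher and 5 lower of 45 tested, extracellular matrix and proteoglycan genes 0 higher and 3 lower of 16 (Gpc5, Hs6st3 and Ndst3), and cadherins and protocadherins 1 higher and 3 lower of 20. Of 55 synapse organisers 1 was higher and 0 lower, of 43 axon guidance genes 0 passed in either direction, and of 20 glutamate receptor genes 1 was lower. None of 13 GABA and glycine receptor genes and none of 20 sodium, calcium and HCN channel genes passed. Without the Nwd2-high nuclei, against 0.558% higher and 0.683% lower, the lower counts were 6 for transcription factors, 4 for extracellular matrix and proteoglycan genes, 2 for cadherins and protocadherins, 1 for synapse organisers and 0 for glutamate receptors, and the higher counts of these lists were as before. With all nuclei, the median ratio of these lists was between −0.42 and −0.02, against −0.01 over all 3239 genes. The lists were assembled with earlier results of these data known.

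Some further genes of the lists differed from the other excitatory neurons without being counted above, because of their level or of at least 1 library, and are given here without the Nwd2-high nuclei. Neurod2, a basic helix-loop-helix factor, was at 26.1, 28.6, 21.3 and 20.4 CPM in EN10 against 2.05, 2.50, 2.44 and 1.56 CPM. Npr3, the clearance receptor of natriuretic peptides, was at 42.4, 115, 115 and 38.9 against 2.59, 6.46, 17.7 and 8.81 CPM. Hpcal1 and Necab1, both calcium-binding proteins, were at 131, 134, 102 and 111 and 137, 321, 334 and 243 CPM against 44.8, 37.9, 49.5 and 35.0 and 73.6, 108, 115 and 116. Mdga1, a regulator of neuroligin binding, was lower at 26.1, 6.36, 38.3 and 11.1 CPM against 142, 103, 122 and 33.4.

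The 15 leading genes of the ranking without the Nwd2-high nuclei, which include Kit and Adamtsl1, were also counted per nucleus. They were chosen as higher in those EN10 nuclei, so the counts are a description only. With each nucleus thinned to 2000 UMIs, EN10 nuclei had a UMI of 6, 5, 7 and 5.5 of the 15 leading genes at the median of E19, P4, P8 and P21, and other excitatory nuclei of 2, 2, 3 and 2. At P4 the Nwd2-high nuclei had 3 and the other EN10 nuclei 7, but the latter were among the nuclei on which the genes were chosen. Ebf2 was seen in 63.3, 35.0, 51.3 and 37.5% of thinned EN10 nuclei and in 25.8, 19.9, 30.2 and 16.8% of the other excitatory nuclei. Astrocytes, which should lack Ebf2, had it in 3.57, 2.24, 0.429 and 1.39%. Before thinning the shares were 83.7, 53.3, 87.2 and 84.4% in EN10 (median depths given above), 38.3, 37.1, 51.0 and 41.5% in the other excitatory nuclei and 6.12, 3.14, 3.43 and 2.79% in astrocytes, whose median depth was 4697, 4329, 5124 and 5525 UMIs. Without the Nwd2-high nuclei, 60.6% of thinned P4 EN10 nuclei had an Ebf2 UMI. Astrocytes were not low in every leading gene. Meis1 was seen in 62.8, 54.3, 57.9 and 42.2% of thinned astrocytes, against 51.0, 33.3, 35.9 and 37.5% of thinned EN10 nuclei. At P4, Meis1 was in 57.6% of thinned EN10 nuclei without the Nwd2-high ones. Cdh20 was also more frequent in thinned astrocytes than in thinned EN10 nuclei in every library, whereas Cntnap4 and Kit were less frequent.

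The 150 EN10 nuclei that were not Nwd2-high fell into nuclei high and low in Alk, a receptor tyrosine kinase of developing neurons (GRCm38 chromosome 17, 71868972 to 72604627, minus strand). The cut, 5 Alk UMIs per 10000, was set after the values were seen. The highest nucleus below it had 3.88, 3.72, 3.42 and 4.14 per 10000 in stage order, and the lowest above it 7.02, 6.05, 11.0 and 8.21. Within a factor of 2 of the cut lay 3, 2, 5 and 1 nuclei below it and 4, 4, 0 and 2 above. At E19, 25 of 47 nuclei were Alk-high (53.2%, exact 95% interval 38.1 to 67.9%), and at P4 24 of 33 were (72.7%, 54.5 to 86.7%). The P8 library had 25 Alk-high nuclei of 38 (65.8%, 48.6 to 80.4%), and the P21 library had 24 of 32 (75.0%, 56.6 to 88.5%). The intervals overlapped, and both kinds were present in every library.

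Other genes differed along with Alk. Of 1567 genes with 100 CPM or more in the higher kind in every library, 32 (2.04%) were at least a log2 ratio of 1 higher in Alk-high nuclei in all 4 libraries, and 14 (0.893%) were lower. The 32 include Alk itself, which chose the nuclei. Lsamp, an adhesion protein of the IgLON family, was at 2165, 2303, 2390.3 and 4199 CPM in Alk-high nuclei and at 12578, 11173, 11244 and 13392 CPM in Alk-low ones, on either side of the 7863, 7360.4, 8674 and 8643 CPM of the other excitatory neurons. Sorcs1 went the opposite way, at 2923, 3506, 3194 and 2931 CPM in Alk-high and 233, 559, 504 and 639.9 CPM in Alk-low nuclei. Dpp6, a subunit of A-type potassium channels, was at 7038, 6447, 7105 and 5399.7 against 997, 972, 1378 and 1196 CPM, and Slit3, a secreted guidance ligand, at 571, 289, 265 and 123 against 16.1, 12.1, 26.9 and 30.5 CPM. Kit, Megf11, Necab1, Gas7 and Pcdh19 were also higher in Alk-high nuclei, with log2 ratios of 1.85 to 3.23, 2.32 to 2.69, 2.20 to 3.88, 1.99 to 3.08 and 1.54 to 1.92.

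The 14 genes higher in Alk-low nuclei include a pair of cadherins. Cdh6 and Cdh7, both type II cadherins, were at 627, 486, 672 and 145 and 531, 704, 464 and 389 CPM in Alk-low nuclei against 44.0, 77.6, 165 and 46.6 and 121, 121, 128 and 108 CPM in Alk-high ones. Gpc5, low in EN10 as a whole, was at 177, 911, 423 and 389 CPM in Alk-low and 5.49, 94.9, 81.0 and 22.1 CPM in Alk-high nuclei. Nell2, a secreted ligand of Robo3, was at 1230.5, 959, 746 and 442 against 324, 246, 274 and 132 CPM. The noncoding RNA Gm32647 was at 450.4, 1117, 1479 and 815 CPM in Alk-low nuclei against 176, 116, 143 and 41.7 CPM. The sums were thin, 82341 to 148795 UMIs for Alk-low and 182006 to 407985 for Alk-high nuclei.

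The leading genes of EN10 divided between both kinds. Meis1, Cdh20 and Cntnap4 were at least a log2 ratio of 1 above the other excitatory neurons in each kind in all 4 libraries: Meis1 by 2.98 to 3.55 in Alk-high and 1.45 to 2.61 in Alk-low nuclei. Golim4, Kit, AC124490.1 and Sorcs1 passed in all 4 libraries in Alk-high nuclei and in 0 in Alk-low ones, where AC124490.1 had 0 UMIs at P4, P8 and P21. Ltbp1 passed in all 4 libraries in Alk-low nuclei (log2 3.04 to 3.84) and in 2 in Alk-high ones (−0.35 to 2.30). Of the 15 leading genes without the Nwd2-high nuclei, 10 passed in all libraries in Alk-high nuclei and 8 in Alk-low ones.

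**Figure D4:**
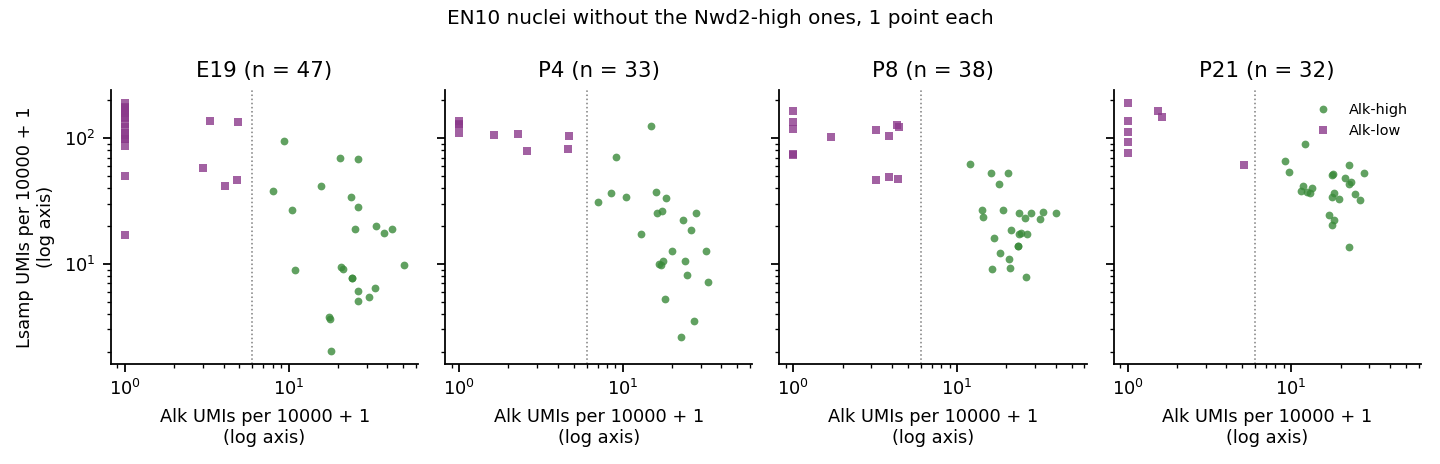
Alk against Lsamp UMIs per 10000 UMIs of each EN10 nucleus that was not Nwd2-high, 1 added and both axes on a log scale, in the 4 libraries; the dotted line is the cut of 5 Alk UMIs per 10000. Alk-low nuclei (squares) lie towards high Lsamp and Alk-high nuclei (circles) towards low Lsamp in each library.

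The authors' cluster 7 held 172 of the 180 EN10 nuclei, beside 134 nuclei of EN11 among its 405. Per the deposited reference labels, 112 EN10 nuclei carried label 22 and 34 label 2 of a reference named Vectorseq. Label 22 was borne by 88 of 98 Alk-high nuclei and by 18 of 52 Alk-low ones, and label 2 by 7 and 23. In a second reference, named Transseq, 88 EN10 nuclei were ESC1, 78 ESC2 and 14 ISC5.

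EN11, the subtype that shared the cluster, differed from EN10 in nuclear factor I genes, a family of transcription factors. It had at least 20 nuclei at E19 and P4, where 64 of 1972 genes (3.25%) were higher and 49 (2.48%) lower in EN10 without the Nwd2-high nuclei, by a log2 ratio of at least 1 in both libraries. Nfib was at 78.3 and 50.9 CPM in EN10 at E19 and P4 against 1743 and 1095 CPM in EN11. Nfia was at 9.79 and 25.5 against 602 and 417 CPM, and Nfix at 3.26 and 3.18 against 192 and 169.5 CPM. EN10 had more of the transcription factor genes Rorb (565 and 376 against 68.4 and 21.4 CPM), Bcl11b (402 and 242 against 48.0 and 23.4) and Lef1 (1221 and 837 against 131 and 138).

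Across the genes compared (5802 at E19 and 5517 at P4), the profile of EN10 was most like that of EN1 in all 4 libraries, with a Pearson correlation of log2 values of 0.911, 0.904, 0.899 and 0.908. EN1 also had the most nuclei of the excitatory subtypes. With each profile thinned to 150000 UMIs EN1 remained first at E19, P4 and P8 and ranked 3 at P21 (0.827, against 0.830 for both EN13 and EN2). The correlations are across genes, which are not independent, and thus describe the order only.

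From E19 to P21, 22 of 24 immature neuron genes were lower in EN10, and 7 of 16 mature neuron genes were higher. Of 2414 genes at 100 CPM or more in either library, 257 (10.6%) were higher at P21 by a log2 ratio of at least 1 and 335 (13.9%) lower. In the other excitatory neurons, whose sums are far deeper, 142 (6.22%) and 230 (10.1%) of 2282 were. The immature neuron genes had a median log2 ratio of −2.84, against −0.01 over all genes tested in EN10, and 0 were higher. Of the mature neuron genes 1 was lower and the other 8 passed in neither direction. Of 42 axon guidance genes 1 was higher and 13 lower. With the Nwd2-high nuclei left out, 22 immature neuron genes were lower, 7 mature ones higher and 12 axon guidance genes lower, with 265 (11.0%) higher and 330 (13.7%) lower of 2404 genes. In the other excitatory neurons the same lists gave 22 of 23 lower, 8 of 16 higher and 8 of 42 lower.

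Tubb2b, a beta-tubulin of growing neurons, was at 907, 414, 181 and 1.85 CPM at E19, P4, P8 and P21 in EN10 without the Nwd2-high nuclei and at 698, 331, 131 and 5.12 CPM in the other excitatory neurons. Tmsb10, an actin-binding thymosin, was at 437, 239, 85.2 and 7.42 CPM, and Nnat, neuronatin, at 898, 420.1, 279 and 20.4 CPM. Each of the 3 was lower in every later library. Fabp7, a fatty acid-binding protein of radial glia, was at 271, 140.02, 72.4 and 3.71 CPM, while the 6 astrocyte markers summed to 163, 105, 115 and 79.7 CPM in the same nuclei; their part in it was not tested. Rasgrf1, an activator of Ras at synapses, was at 6.53, 76.4, 119 and 454 CPM, higher in every later library, and at 52.0, 94.9, 151 and 509 CPM in the other excitatory neurons. Sgpp2, a sphingosine-1-phosphate phosphatase, was 4.51 higher at P21 than at E19 on the log2 scale, and Lrmda was at 0 and 124 CPM, at least 12.7-fold higher.

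Several genes differed between EN10 and the other excitatory neurons in their course over the stages or in their starting level. These were chosen after their values were seen. Gm45904, an antisense RNA (GRCm38 chromosome 8, 112880460 to 113004997, minus strand) whose end overlaps the end of Cntnap4 on the other strand (chromosome 8, 112570043 to 112882717, plus strand), was at 408, 289.6, 509 and 20.4 CPM in EN10 and at 5.53, 3.47, 4.25 and 4.98 CPM in the other excitatory neurons. Cntnap4 itself was at 1374, 1419, 1352 and 916 CPM. The labels do not say whether reads were assigned by strand, and whether the overlap affected either count was not tested. Hpse2, a relative of heparanase without its activity, was at 26.1, 191, 524 and 195 CPM in EN10, highest at P8, and at 3.92, 5.97, 6.84 and 2.99 CPM elsewhere. Casz1, a zinc-finger factor, was at 131, 63.6, 61.7 and 16.7 CPM against 10.5, 10.7, 18.2 and 11.4. March3, a ubiquitin ligase, was at 35.9, 60.5, 132 and 226 against 54.5, 83.8, 39.1 and 57.5 CPM. Nr3c2, the mineralocorticoid receptor, was higher at each later stage in both groups but started lower in EN10, at 13.1, 31.8, 55.4 and 354 against 102, 105, 167 and 391 CPM.

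The counts of both steps that include P4 were smaller without the Nwd2-high nuclei, while those from P8 to P21 were nearly the same. From E19 to P4, 97 of 2280 genes (4.25%) were higher and 74 (3.25%) lower with all EN10 nuclei, and 65 of 2246 (2.89%) and 60 (2.67%) without the Nwd2-high ones. In the other excitatory neurons 0.528% were higher and 1.1% lower. Their sums were far deeper, at 11215595 and 14393584 UMIs at E19 and P4 against 316385 and 501578 in EN10. The part of counting error in the shares of this paragraph was not tested. From P4 to P8 the counts were 60 of 2230 (2.69%) higher and 103 (4.62%) lower with all, and 28 of 2177 (1.29%) and 39 (1.79%) without, against 0.591% and 1.08% in the other excitatory neurons. From P8 to P21, 99 of 2237 (4.43%) were higher and 126 (5.63%, or 5.68% without the Nwd2-high nuclei) lower, against 2.04% and 2.57% in the other excitatory neurons. The genes with the largest ratios at both early steps with all nuclei (Ano1, Cadps2, Gm29478 and Robo3 towards P4, and Nwd2, D130009I18Rik, Scube1 and D130079A08Rik away from it) were also higher in the Nwd2-high nuclei than in the other EN10 nuclei of P4.

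Without the Nwd2-high nuclei, the largest ratios from E19 to P4 were those of AC149090.1 (2.69, and 2.14 in the other excitatory neurons), Hpse2 (2.65), Kcnip4, a partner of A-type potassium channels (2.26, from 1325 to 6361 CPM), and Dync1i1, a dynein chain (1.98). The transcription factor genes Zfp521 (−2.86) and Sox6 (−2.46) and the histone gene H2afz (−2.17) were lower at P4. Zfp521 was at 193 and 22.3 CPM in EN10 and at 197 and 165 in the other excitatory neurons.

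From P4 to P8, Chrm2, a muscarinic receptor, was at 22.3 and 119 CPM, and Scd2 (−1.78), Arl6ip1 (−1.61), Tmsb10 (−1.43) and Eif4a1 (−1.39) were lower at P8. From P8 to P21, Rhbdl3 (3.36), the antisense RNA Gm13629 (2.98) and Specc1 (2.91) were higher and Tubb2b (−4.76), Gm10754 (−4.68), Gm45904 (−4.34) and Nnat (−3.48) lower. Over the same step the 7 oligodendrocyte lineage markers summed to 63.9 and 276 CPM in EN10 and to 58.8 and 270 CPM in the other excitatory neurons; their part in these ratios was not tested.

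Both NMDA receptor subunit genes were read at every stage, and Grin2a made up more of the pair at each later stage. Grin2a was at 629, 702, 934 and 1146 CPM and Grin2b at 1207, 799, 892 and 623 CPM in EN10. The log2 ratio of Grin2a to Grin2b UMIs was, in stage order and with exact 95% intervals from the counts, −0.94 (−1.20 to −0.69), −0.19 (−0.40 to 0.02), 0.07 (−0.13 to 0.26) and 0.88 (0.69 to 1.08). In the other excitatory neurons it was −1.58 (−1.63 to −1.53), −0.97 (−1.01 to −0.93), −0.40 (−0.44 to −0.36) and 0.18 (0.14 to 0.21). EN10 thus lay further towards Grin2a than the other excitatory neurons in each library, with intervals that did not overlap, and did so without the Nwd2-high nuclei too (−0.16 (−0.40 to 0.09) at P4). The intervals treat UMIs as independent and cover no spread between animals.

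**Figure D5:**
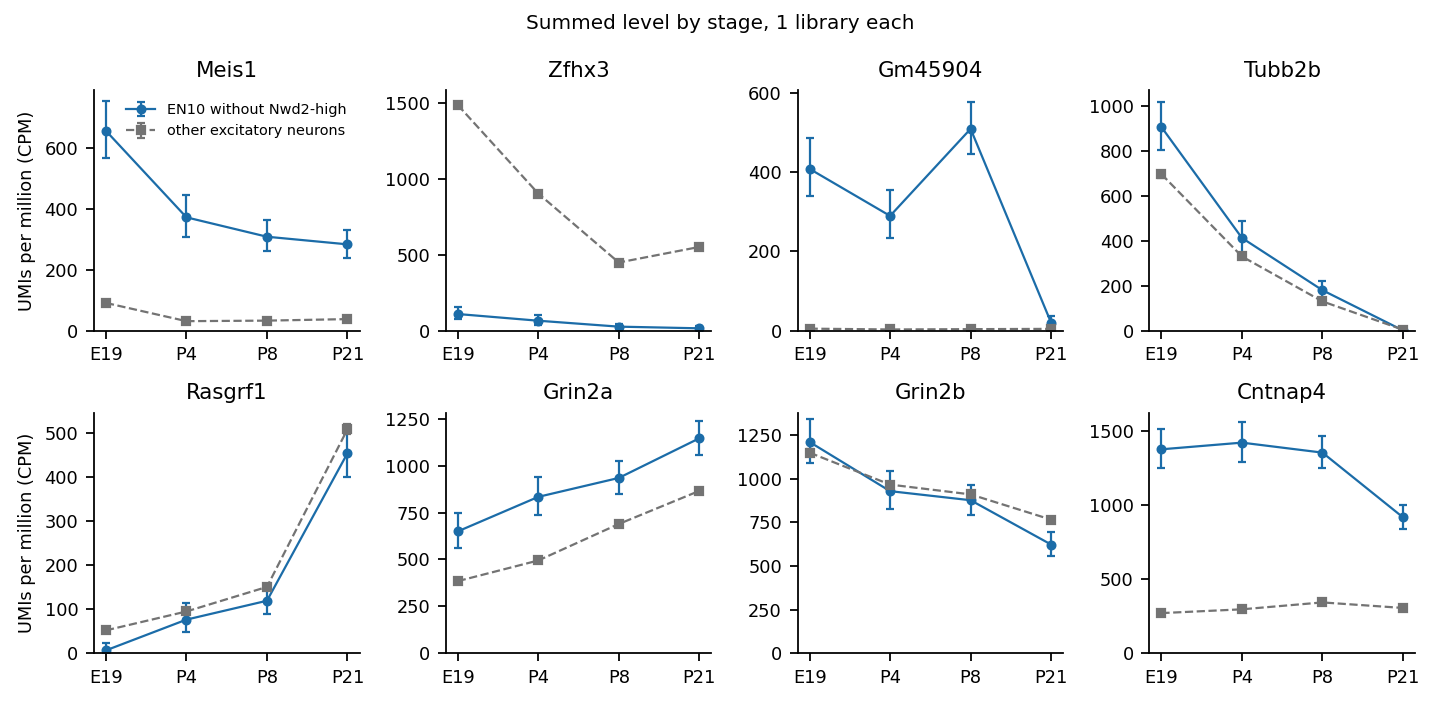
Level of 8 genes in CPM by stage in EN10 without the Nwd2-high nuclei (circles) and in the other excitatory neurons (squares), 1 library each; bars are exact 95% Poisson intervals of the summed counts. Gm45904 stands at 290 to 509 CPM until P8 and at 20.4 CPM at P21 in EN10, and Meis1 and Cntnap4 stay above and Zfhx3 below the other excitatory neurons at every stage.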

How the data were processed

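Nuclei from superior colliculus were profiled with the 10x 3' version 3 chemistry, 1 library of pooled tissue per stage, with a target of 2000 nuclei per sample, per the labels' protocols. The submitters' processing notes name Cell Ranger 3.0.2 and the build mm10. The authors deposited UMI counts of 31053 genes in 9724 nuclei with a table of stages, cell types, subtypes and clusters, and in it each nucleus's mitochondrial percent as deposited by the authors, at most 5%. The labels do not say how subtypes were called or doublets treated, and no doublet caller was run. A total of 4 further deposited columns of per-nucleus values was not used.

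Counts were summed per library and group and divided by the summed UMIs (CPM), and log2 ratios had 5 CPM added. With 1 library per stage no test was made. A gene was counted against the other excitatory neurons when its log2 ratio was at least 1 in one direction in all 4 libraries with 50 CPM or more in the higher group, and between stages when it was at least 1 with 100 CPM or more in the higher library. Named were the 15 highest and 10 lowest genes by the ratio nearest 0, 4 in each direction per stage step, and up to 2 in each direction per gene list at 20 CPM or more; mitochondrial, ribosomal, haemoglobin and sex-linked genes were left out, and some genes the rule names are not reported here. Intervals are exact 95% Poisson or Clopper-Pearson binomial ones and cover counting error only. For shares of nuclei with a UMI, each nucleus was thinned to 2000 UMIs. EN10 sums held 316385 to 539254 UMIs per library. Of the gene identifiers, 99.6% were found in GENCODE vM21 (GRCm38). The EN10 nuclei and the gene lists were chosen with earlier results of these data known. Alternatives were other pseudocounts, scalings, weights and filters, thinning, leaving out each library, leaving out nuclei with both glutamate and GABA markers and, chosen after seeing the data, leaving out Nwd2-high nuclei or keeping Alk-high or Alk-low nuclei alone. The scripts were tested on simulated data. Python 3.11.15, numpy 2.4.6, pandas 2.3.3 and scipy 1.17.1 were used.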

Additional observations from a re-analysis of the deposited data

Results flagged for a closer look

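In 4 cases a gene's log2 ratio between neighbouring stages passed 1 in one direction in EN10 and in the opposite direction in the other excitatory neurons. Each compares single libraries, and the difference was not tested. Nfib, a nuclear factor I gene, had a log2 ratio of 1.00 from E19 to P4 in EN10 (82.2 to 169 CPM) and of −1.07 in the other excitatory neurons (155 to 70.9 CPM), while without the Nwd2-high nuclei EN10 was at 78.3 and 50.9 CPM. The noncoding RNA Gm32647 had 1.00 from P4 to P8 in EN10 (275 to 556 CPM) and −1.33 in the others (315 to 122 CPM), and 0.57 without the Nwd2-high nuclei. Sox6, a transcription factor gene, had −2.61 from P4 to P8 in EN10 (305 to 45.9 CPM) and 1.23 in the others (217 to 518 CPM), but stood at 19.1 and 40.5 CPM without the Nwd2-high nuclei.

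Zeb2, a zinc-finger homeobox factor, had 1.17 from P8 to P21 in EN10 without the Nwd2-high nuclei (68.1 to 159 CPM) and −1.26 in the other excitatory neurons (343 to 141 CPM). With all EN10 nuclei the log2 ratio was 0.86. It was the only 1 of 1946 genes tested at that step to do so.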

How the results depend on the processing

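Of the counts, shares and ranks recomputed under each alternative, 95 stayed within 1.5 times or within their interval and 51 did not. Of the values of single genes 769 kept direction and side of the threshold, 54 no longer passed, 2 came to pass and 5 reversed. The 769 include outcomes that were fixed in advance and are no test of the gene. A change of the filter on level leaves a gene's ratio as it was. Against the other excitatory neurons, the smallest ratio of a passing gene can only stay or grow in size with 1 library left out. The genes higher in EN10 (16) numbered 25 without the filter on level, 26 in Alk-low nuclei alone and 18 to 27 with 1 library left out, most without P21. The lower ones (17) numbered 11 with nuclei weighted alike, 28 with a filter at 20 CPM, 36 without one, 35 in Alk-high and 32 in Alk-low nuclei alone, and 23 to 32 with 1 library left out. The rule asks for every library, so leaving 1 out can only keep or add genes. With thinned nuclei 11 were higher and 16 lower, and 9 and 12 of these were among the 16 and 17. With the other subtypes weighted alike 11 and 13 of the 16 and 17 remained, in Alk-high nuclei alone 9 and 15, and in Alk-low nuclei alone 10 and 7. Of the share in all neurons, EN10 made up 2.20%, 3.09%, 1.99% and 2.25% in stage order, and of all nuclei 1.90%, 2.51%, 1.56% and 1.42%; the P4 share of excitatory nuclei was 2.80% without the Nwd2-high nuclei.

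For stages, higher and lower counts from E19 to P4 were 216 and 181 at a filter of 50 CPM, 1216 and 876 without one and 248 and 236 with thinned nuclei, and the lower count was 46 with 20 CPM added and 115 without nuclei holding both transmitter markers. From P4 to P8 they were 114 and 225, 550 and 1151, and 264 and 330 under the same 3 settings, 99 and 167 without the doubly marked nuclei and 28 and 39 without the Nwd2-high nuclei, and the higher count was 92 with nuclei weighted alike. From P8 to P21 they were 217 and 277, 874 and 1214, and 366 and 396, and from E19 to P21 505 and 734, 1419 and 2323, and 455 and 548. Lower filters test more genes with few UMIs. EN1 was rank 3 in likeness at P21 with thinned profiles.

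In Alk-low nuclei alone AC124490.1 and Sorcs1 reversed, to −0.33 and −0.14 in the library nearest 0. Over the libraries they ranged to −3.43 and −1.58. From E19 to P4 Sox6 was at −2.46 without the Nwd2-high nuclei and −1.08 in Alk-high nuclei alone, and from P4 to P8 Scube1 was at 0.70 in Alk-high nuclei alone. Apart from the settings whose construction changes the genes or nuclei, the cause was not tested. No paired analysis was possible because each stage is a single library. With 32 to 60 EN10 nuclei per library, genes near the level filter rest on few UMIs.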
